A study of Mus musculus with 4 samples.

Results

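The 10 genes described here belong to the neuronal cytoskeleton and growth cone. They are the neurofilament subunit genes Nefl, Nefm, Nefh and Ina, the microtubule-associated protein genes Map2, Mapt and Map1b, the tubulin gene Tubb3, and the growth-cone genes Gap43 and Stmn2. They were chosen by symbol. Of 22609 genes in the files, 8 carried a listed symbol, and the other 2 stood under older symbols, Map2 as Mtap2 and Map1b as Mtap1b, which the RefSeq gene table pairs with the current names. All 10 genes had between 1589 and 25900 reads in each library and passed the filter on low counts.

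RNA was measured in the hippocampus of ovariectomized C57BL/6 mice with estradiol (E2) mini pumps, all subjected to GCI (global cerebral ischemia, in which the brain's blood supply is interrupted for a time) and taken at 24 h of reperfusion. The genotypes were labelled FLOXED and PELP1 FBKO, with 2 libraries each, numbered 1 and 2 in their titles. PELP1 is a co-regulator of the estrogen receptor, and FBKO stands for its knockout in the forebrain. The age of the mice, the driver of the deletion and whether a library came from 1 animal or a pool are not stated in the labels. Both genotypes had estradiol and ischemia, so a difference that arose before either treatment cannot be told apart from one that arose after it. The sources do not tie the libraries to separate animals, and p-values therefore measure the spread between these libraries alone, which may be technical.

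Neurofilaments are the intermediate filaments of mature axons. They are built from a light, a medium and a heavy chain with alpha-internexin, and set the calibre of the axon. Microtubules are polymers of alpha- and beta-tubulin that carry transport along axons and dendrites. MAP2 binds them in dendrites and the cell body, tau in axons, and MAP1B most strongly in growing axons. GAP-43 and stathmin-2 are proteins of the growth cone, the motile tip of a growing axon, and both are known for their rise in neurons that regrow an axon. In the hippocampus, loss of MAP2 protein from dendrites is a known early sign of ischemic injury.

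Reads assigned to genes came to between 17524594 and 22447658 per library, and levels are given in CPM, read counts scaled to library size, here with edgeR's TMM factors. Pelp1, the targeted gene, had 26.7 and 26.3 CPM in the FLOXED libraries, against 18.0 and 17.3 CPM in the PELP1 FBKO libraries. Both PELP1 FBKO libraries lay below both FLOXED libraries, and the log2 fold change of -0.59 (SE 0.149) missed the threshold of 0.05 (edgeR quasi-likelihood, adjusted p = 0.130). Markers of hippocampal CA1 and dentate neurons were present, with none of the markers of either list at 0 in every library. The same held for each other marker list read here, so this does not identify the tissue. FLOXED 1 had the most non-unique alignments, 47.7% against 38.5% to 41.5% in the other 3 libraries, and the highest level of the choroid plexus gene Ttr, 324 CPM against 21.4 to 67.5. The 6 choroid plexus markers as a list did not follow Ttr. Their median log2 deviation, log2 CPM minus the gene's mean over the 4 libraries, was 0.09 in FLOXED 1 and 0.36 in PELP1 FBKO 2. The values with each library left out stand with the results below.

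No genotype difference beyond the spread of the libraries was detected in any of the 10 genes. By edgeR's quasi-likelihood test, with adjustment over all 14978 tested genes, 0 of the 10 were higher and 0 lower in PELP1 FBKO, and the smallest adjusted p among them was 0.547, for Mapt. The share of all tested genes called by that test was 0%, so the count of 0 is no property of these genes. At an unadjusted p under 0.05 the count was again 0 of 10, where 15.6% of all tested genes passed. DESeq2 called 0 of the 10 as well, against 3.08% of its tested genes, and edgeR's exact test called 0, against 5.07%. Log2 fold changes, PELP1 FBKO minus FLOXED throughout, were above 0 in 4 genes and below 0 in 6, with a median of -0.05, beside a median of 0.00015 over all tested genes. In 9 of the 10 genes, all but Gap43, the difference between the genotype means was smaller than the larger of the differences between libraries of a genotype, on the log2 scale.

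**Figure D1:**
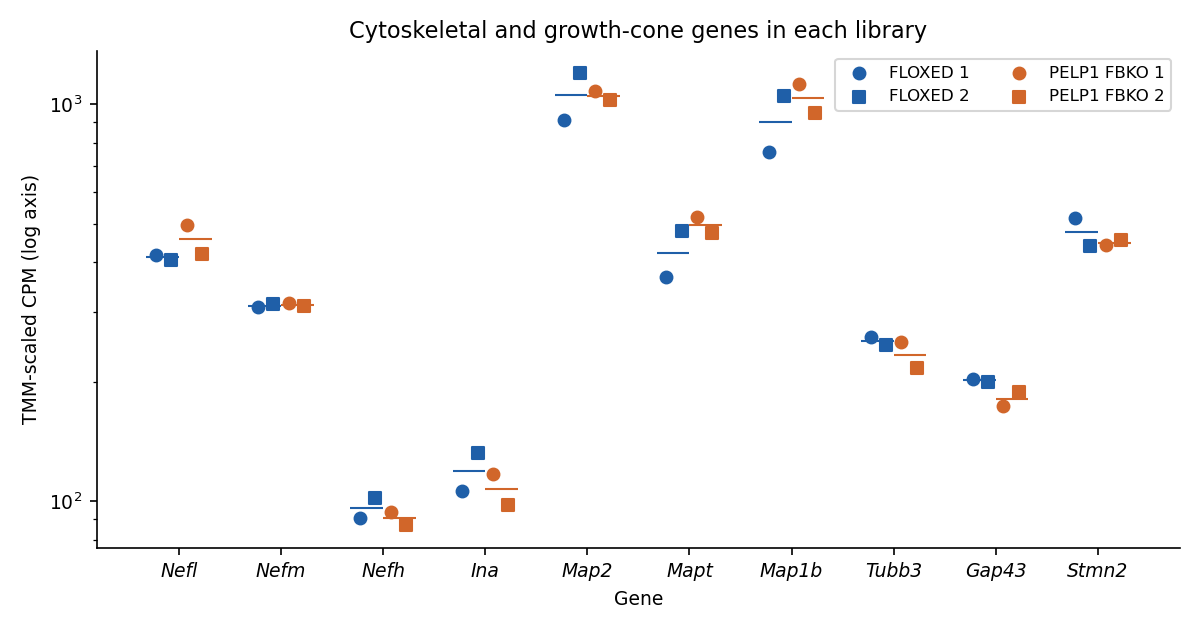
TMM-scaled CPM (log axis) of the 10 genes in each library, with FLOXED in blue, PELP1 FBKO in orange and horizontal lines at the mean of each genotype (n = 2). The genotypes overlapped in every gene except Nefl and Gap43, and the widest spread, in Map1b, ran from 756 CPM in FLOXED 1 to 1124 CPM in PELP1 FBKO 1.

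Promoter sequence was at hand in the RefSeq promoter table (GRCm38.p6) for 4 of the 10 genes, Ina, Map2, Map1b and Tubb3; Nefl, Nefm, Nefh, Mapt, Gap43 and Stmn2 had no entry. Since PELP1 acts with the estrogen receptor, the 250 bases before each start in that table were searched on both strands for the full estrogen response element GGTCANNNTGACC and for its GGTCA arm alone, which the full element contains. In the GENCODE vM21 models Map2 and Tubb3 start inside their windows, so part of these 2 windows is transcribed there. The full element was in 0 of the 4 promoters and in 0.0645% of 32536 promoter windows of that length. The GGTCA arm was found once, before Ina, and 35.3% of all windows hold it. The Sp1 box GGGCGG was found 5 times before Map2, 2 times each before Ina and Tubb3, and once before Map1b, and 33.0% of all windows hold it. The cAMP response element TGACGTCA (in 1.56% of windows) and the AP-1 site TGANTCA (6.73%) were in none of the 4, and the TATA box TATAAA (12.3%) was in Map1b. Neither Ina nor Map1b had a detected genotype difference. The main test called 0 of 14978 genes, so these 2 genes cannot bear on the part of the GGTCA arm. The windows before Ina (chr19:47014431-47014680, plus strand) and Map1b (chr13:99516603-99516852, minus strand) are shown because the first holds the GGTCA letters and the second does not. Both read 5′ to 3′ in the direction of the gene, and capitals mark the GGTCA arm, the Sp1 box and the TATA box on either strand.
Ina: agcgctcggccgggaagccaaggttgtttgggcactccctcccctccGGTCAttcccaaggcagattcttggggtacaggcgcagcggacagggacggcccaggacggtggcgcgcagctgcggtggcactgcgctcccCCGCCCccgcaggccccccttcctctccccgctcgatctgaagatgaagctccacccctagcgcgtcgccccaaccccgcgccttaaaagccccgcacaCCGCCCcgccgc
Map1b: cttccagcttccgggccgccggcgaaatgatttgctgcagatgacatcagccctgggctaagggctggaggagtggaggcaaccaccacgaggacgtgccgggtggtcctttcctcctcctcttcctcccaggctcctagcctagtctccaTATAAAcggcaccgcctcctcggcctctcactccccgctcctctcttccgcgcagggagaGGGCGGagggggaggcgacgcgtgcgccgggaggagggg
These windows are rich in G and C, at 70.8% before Ina and 66.4% before Map1b, against a median of 52.4% over all windows. A match to these letters is a description and not a bound site, and the data hold no measure of binding.

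Among the neurofilament genes, Nefl, the light chain on which the filament assembles, measured 418 CPM in FLOXED 1 and 406 CPM in FLOXED 2, against 495 CPM in PELP1 FBKO 1 and 419 CPM in PELP1 FBKO 2. The 2 genotypes did not overlap, but PELP1 FBKO 2 lay less than 1 CPM above FLOXED 1, and with median-ratio size factors in place of TMM they overlapped. The log2 fold change was 0.15 (SE 0.149, edgeR quasi-likelihood adjusted p = 0.672), and it ran from 0.0055 without PELP1 FBKO 1 to 0.27 without PELP1 FBKO 2. The high value of 1 library, PELP1 FBKO 1, carried most of the difference.

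Nefm, the medium chain, was the steadiest of the 10 genes. The FLOXED libraries had 308 and 314 CPM of it and the PELP1 FBKO libraries 315 and 310 CPM, a 1.03-fold range over the 4 libraries. Its log2 fold change was 0.0088 (SE 0.132), with a 95% interval from -0.29 to 0.31, so a rise or fall of the size seen for Pelp1 lay outside the interval. Nefl and Nefm lie beside each other and overlap at their ends on opposite strands in the GENCODE vM21 models. Whether the authors' counting used strand is not stated in the labels, and reads in such an overlap could go to either gene or to none.

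Nefh, the heavy chain, whose long phosphorylated tail projects from the filament, measured 90.6 and 102 CPM in the FLOXED libraries, against 94.1 and 87.0 CPM in the PELP1 FBKO libraries. The genotypes overlapped, with FLOXED 2 highest and PELP1 FBKO 2 lowest, and the log2 fold change was -0.09 (SE 0.131, edgeR quasi-likelihood adjusted p = 0.796). It was -0.17 when FLOXED 1 was left out and -0.012 when FLOXED 2 was. Leaving out PELP1 FBKO 1 gave -0.16, and leaving out PELP1 FBKO 2 gave -0.029. Ina, alpha-internexin, measured 106 and 132 CPM in the FLOXED libraries, against 117 and 97.9 CPM in the PELP1 FBKO libraries. FLOXED 2 again stood highest, the groups overlapped, and the log2 fold change was -0.15 (SE 0.159, adjusted p = 0.697). Without FLOXED 2 it was 0.0076, and without PELP1 FBKO 1 it was -0.30. Ina overlaps Nt5c2 on the opposite strand in the same gene models.

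Per kilobase of the longest coding transcript, the light chain made up the largest share of the summed level of the 4 subunit genes in each library. Nefl took 47.1% and 44.2% of that sum in FLOXED and 50.2% and 47.7% in PELP1 FBKO. Nefm took 31.8% and 31.4% in FLOXED and 29.4% and 32.3% in PELP1 FBKO, and the genotypes overlapped. Ina took 12.5% and 15.03% in FLOXED and 12.4% and 11.6% in PELP1 FBKO, and Nefh took 8.64% and 9.37% in FLOXED against 8.07% and 8.38%. The share of Nefl was higher and those of Ina and Nefh lower in both PELP1 FBKO libraries, by less than 1 percentage point between the nearest libraries. With 2 libraries a genotype, an exact permutation test of any such value cannot go below a two-sided p of 0.333, so these shares were not tested. The summed level itself was 263 and 272 CPM per kilobase in FLOXED and 292 and 260 in PELP1 FBKO, with PELP1 FBKO 1 highest and PELP1 FBKO 2 lowest.

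In the 3 microtubule-associated protein genes FLOXED 1 was the lowest library, and the levels spanned a 1.31-fold (Map2) to 1.49-fold (Map1b) range over the libraries, against 1.03-fold (Nefm) to 1.35-fold (Ina) in the neurofilament genes. Map2, the dendritic member, measured 914 and 1195 CPM in the FLOXED libraries, against 1077 and 1024 CPM in the PELP1 FBKO libraries. Both PELP1 FBKO libraries fell between the FLOXED libraries. The log2 fold change was -0.0056 (SE 0.180, edgeR quasi-likelihood adjusted p = 0.993), and it was -0.19 without FLOXED 1 and 0.19 without FLOXED 2.

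Mapt, which encodes the axonal protein tau, measured 367 and 478 CPM in the FLOXED libraries, against 521 and 474 CPM in the PELP1 FBKO libraries. FLOXED 1 was low, and FLOXED 2 lay between the PELP1 FBKO libraries. Mapt had the smallest p of the 10 genes, with a log2 fold change of 0.23 (SE 0.170) and a 95% interval from -0.16 to 0.63. Without FLOXED 1 the log2 fold change was 0.06, and without FLOXED 2 it was 0.43 (adjusted p = 0.240, with FLOXED 1 alone against 2 libraries). Over the 4 libraries, the 3 genes with the most similar log2 pattern to Mapt among 11166 genes with at least 100 reads in each library were C530008M17Rik, Adam22 and Igf2r. Their Euclidean distances from Mapt, in log2 CPM centred on each gene's mean, were 0.0105, 0.0149 and 0.0172, and Adam22, for example, had 161 and 209 CPM in the FLOXED libraries, against 227 and 205 CPM in the others.

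Map1b, the member of growing axons, measured 756 and 1048 CPM in the FLOXED libraries, against 1124 and 949 CPM in the PELP1 FBKO libraries. FLOXED 1 was again the lowest and FLOXED 2 lay between the PELP1 FBKO libraries. The log2 fold change was 0.20 (SE 0.199, edgeR quasi-likelihood adjusted p = 0.673), the widest interval of the 10 genes, from -0.26 to 0.66. It turned to -0.017 without FLOXED 1 and grew to 0.44 without FLOXED 2. For each of the 3 genes the genotypes overlapped, and the difference between the FLOXED libraries, 0.39 (Map2), 0.38 (Mapt) and 0.47 (Map1b) on the log2 scale, exceeded the difference between the genotype means.

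The ratio of Map2 to Mapt, each per kilobase, was 2.09 and 2.10 in FLOXED and 1.74 and 1.81 in PELP1 FBKO. The ratio was lower in both PELP1 FBKO libraries, and libraries of a genotype lay closer together in the ratio than in either gene alone. It was one of 4 ratios computed, chosen after the levels were seen. The ratio of Nefl to Ina was also separated, at 3.78 and 2.94 in FLOXED and 4.06 and 4.10 in PELP1 FBKO. The other ratios overlapped, Nefl to Nefm (1.41 to 1.71 over the 4 libraries) and Stmn2 to Gap43 (1.5 to 1.74). Among single genes, 48.4% of all tested had genotypes that did not overlap, so a separated ratio is no sign of a genotype difference by itself. The ratios were not tested.

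Tubb3, the neuron-specific beta-tubulin, measured 259 and 247 CPM in the FLOXED libraries, against 251 and 216 CPM in the PELP1 FBKO libraries. The groups overlapped, with PELP1 FBKO 2 lowest, and the log2 fold change was -0.11 (SE 0.140, edgeR quasi-likelihood adjusted p = 0.745). It was -0.0069 without PELP1 FBKO 2 and -0.24 without PELP1 FBKO 1. Tubulin genes have near-identical copies, and reads with more than 1 placement were not counted, so tubulin levels are uncertain.

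Gap43, a membrane-bound substrate of protein kinase C in the growth cone, measured 204 and 200 CPM in the FLOXED libraries, against 173 and 189 CPM in the PELP1 FBKO libraries. It was the 1 gene of the 10 whose PELP1 FBKO libraries both lay below both FLOXED libraries. The log2 fold change was -0.16 (SE 0.129), with a 95% interval from -0.46 to 0.14, and did not pass the threshold (edgeR quasi-likelihood, adjusted p = 0.594). It stayed between -0.22 and -0.12 with each library left out in turn, and was -0.07 with offsets for transcript length.

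Stmn2, a stathmin that binds tubulin dimers and loosens microtubules, measured 515 and 438 CPM in the FLOXED libraries, against 441 and 454 CPM in the PELP1 FBKO libraries. FLOXED 1 was high, and the other 3 libraries lay close together. The log2 fold change was -0.09 (SE 0.149, edgeR quasi-likelihood adjusted p = 0.815), 0.03 without FLOXED 1 and -0.22 without FLOXED 2.

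Of the 10 genes, 1 (Nefl) was separated towards higher and 1 (Gap43) towards lower values in PELP1 FBKO, while 48.4% of all tested genes had genotypes that did not overlap. The share among these genes was below that background. On the fold scale, the 95% interval was narrowest for Gap43, from 0.729 to 1.10, and widest for Map1b, from 0.835 to 1.58. The lowest bound of the 10 genes was 0.700, for Ina. Each of the 10 intervals held 0 on the log2 scale.

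**Figure D2:**
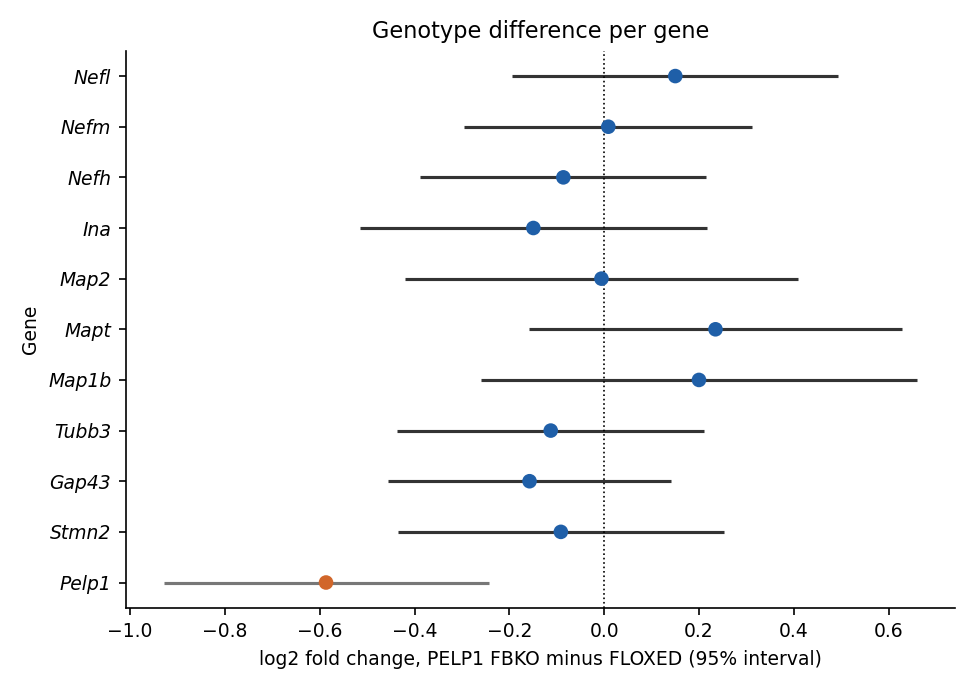
Log2 fold change of each gene, PELP1 FBKO minus FLOXED, with its 95% interval from the edgeR quasi-likelihood fit (n = 2 a genotype), and Pelp1 in orange at the bottom. The intervals of the 10 genes cross 0, with point values from -0.16 (Gap43) to 0.23 (Mapt), while that of Pelp1 runs from -0.93 to -0.24.

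Levels were ordered per kilobase of the longest coding transcript in GENCODE vM21, as means over the 4 libraries. Stmn2 was highest at 223 CPM per kilobase (211 to 249), followed by Map2 at 168 (146 to 191), and these 2 did not overlap. Gap43 at 135, Tubb3 at 130 and Nefl at 129 overlapped each other, and the highest library of Nefl, at 146.5, reached the lowest of Map2. Mapt at 87.6, Nefm at 84.7 and Map1b at 82.1 overlapped each other and lay below those genes. Ina at 35.0 and Nefh at 23.4 were lowest and did not overlap with any other gene or each other. The order depends on the length used. Per kilobase of all annotated exons, Tubb3 (130), Nefl (129) and Gap43 (126) were highest, and Stmn2 fell to 82.5 and Map2 to 64.0.

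The libraries differed in a way that followed transcript length. Stmn2, Gap43 and Tubb3, the shortest of the 10 transcripts, had their highest level in FLOXED 1, and Map1b, Map2 and Mapt, the longest, had their lowest there. On the log2 scale, FLOXED 1 minus the mean of the other 3 libraries was 0.21 for Stmn2, 0.12 for Gap43 and 0.12 for Tubb3. It was between -0.11 and -0.02 for the 4 neurofilament genes, whose transcripts run from 3240 to 3994 bases. It was -0.26 for Map2, -0.42 for Mapt and -0.46 for Map1b. Over the 10 genes, Spearman's rho between length and this difference was -0.84, a description over genes that share the same 4 libraries.

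The same order held over 11085 genes with a known length and at least 100 reads in each library. There the median of FLOXED 1 minus the other 3 was 0.37 for transcripts up to 1500 bases, 0.15 up to 3000, -0.04 up to 5000, -0.21 up to 8000 and -0.30 beyond. The median genotype difference went from -0.20 in the shortest to 0.11 in the longest class. FLOXED 1 minus the other 3, taken against the median of that value in the gene's own length class, was -0.21 for Mapt and -0.15 for Map1b. It was -0.05 for Map2, 0.06 for Stmn2 and -0.25 for Gap43. With offsets that follow transcript length in each library, an alternative added after the data were seen, log2 fold changes were 0.15 for Mapt, 0.07 for Map1b and -0.11 for Map2, and 0 of the 10 genes passed the threshold, where 2% of all tested genes did. The part of transcript length in the genotype values was not tested beyond that fit.

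**Figure D3:**
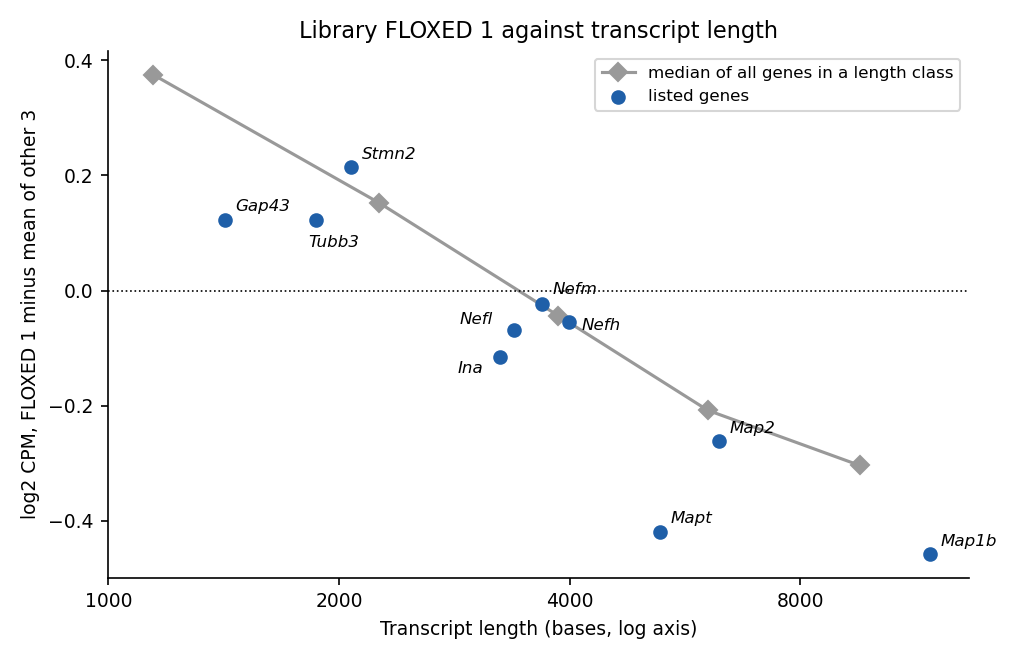
Log2 CPM in FLOXED 1 minus the mean of the other 3 libraries (y axis) against the length of the longest coding transcript (x axis, log scale), for the 10 genes (blue) and as the median of all genes in 5 length classes (grey). Both fall with length, from 0.37 in the shortest class to -0.30 in the longest, and the 3 microtubule-associated protein genes lie lowest.

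Genes of the same structures that are not among the 10 were read from lists. In none of the 8 lists did a gene pass the edgeR threshold over all genes, beside the 0% called over all tested genes. The unadjusted threshold of 0.05 was passed by 10.1% of all tested genes towards higher and 5.55% towards lower values. The list of other intermediate filament genes held 9 genes, among them Syne1, which does not encode an intermediate filament protein. Of the 9, 2 passed that threshold towards higher and 0 towards lower values, with a median log2 fold change of 0.05. The 2 were Prph, the neuronal filament protein peripherin, with 3.14 and 2.86 CPM in FLOXED against 6.53 and 5.39 CPM, and Synm, synemin, with 51.1 and 70.2 CPM in FLOXED against 104 and 88.2 CPM.

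Of 15 other tubulin genes 12 had a log2 fold change below 0, with a median of -0.24. Here 0 passed an unadjusted p of 0.05 towards higher and 1 towards lower values. That gene was the gamma-tubulin gene Tubg1, which serves microtubule nucleation, with 58.4 and 45.8 CPM in FLOXED against 39.2 and 37.3 CPM (edgeR quasi-likelihood adjusted p = 0.236). The genotypes did not overlap in 7 tubulin genes towards lower and 2 towards higher values, where 23% and 25.4% of all tested genes did. The median log2 deviation of the tubulin genes was 0.21 for FLOXED 1 and 0.04 for FLOXED 2. For PELP1 FBKO 1 it was -0.14 and for PELP1 FBKO 2 it was -0.01.

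Of 28 other microtubule-associated protein genes 3 passed an unadjusted p of 0.05 towards higher and 0 towards lower values, with a median of -0.02. Tppp3, a tubulin polymerization promoting protein, had 33.4 and 32.9 CPM in FLOXED against 58.5 and 65.7 CPM, and its log2 fold change was 0.90 (SE 0.135, edgeR quasi-likelihood adjusted p = 0.0567). Dcx, doublecortin of immature neurons, had 12.1 and 14.5 CPM against 18.3 and 24.4 CPM. Both separated the genotypes without passing the threshold. The 3 other stathmin genes had 0 in either direction. Stmn3 had 774 and 592 CPM in FLOXED against 577 and 535 CPM, with FLOXED 1 high as for Stmn2.

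Of 21 tested growth-cone genes the genotypes did not overlap in 10 towards lower and in 4 towards higher values. Those shares were 23% and 25.4% over all tested genes. At an unadjusted p of 0.05, 1 of the 21 passed towards higher and 2 towards lower values, with a median of -0.06. The lower genes were Nrn1, the activity-induced neuritin, with 493 and 398 CPM in FLOXED against 314 and 286 CPM (log2 fold change -0.57, SE 0.158, edgeR quasi-likelihood adjusted p = 0.151), and Fscn1, the actin-bundling fascin, with 193 and 179 CPM against 141 and 142 CPM. The 18 genes of cytoskeletal kinases, phosphatases and proteases and the 16 genes of axonal transport motors had 0 higher and 0 lower, with medians of -0.08 and -0.02. Among 13 tested genes of axon injury and regeneration 0 were higher and 3 lower, with a median of -0.36. Jun had 199.8 and 183 CPM in FLOXED against 141 and 158 CPM, and the neuropeptide gene Gal 4.62 and 6.18 CPM against 0.635 and 3.23 CPM. The median deviation of this list was -0.82 in PELP1 FBKO 1 and between 0.15 and 0.24 in the other 3 libraries. The genotypes did not overlap in 4 of the 13 genes towards lower and in 2 towards higher values. Over all tested genes these shares were 23% and 25.4%. The part of PELP1 FBKO 1 in the median log2 fold change of this list was not tested.

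Neuronal and glial markers give the setting for these values. In a piece of tissue, fewer cells of a type and less RNA per cell cannot be told apart. The 8 pan-neuronal markers had a median log2 fold change of 0.0067, with 4 above and 4 below 0, and summed levels of 7546 and 7560 CPM in FLOXED and 8328 and 7054 in PELP1 FBKO. The PELP1 FBKO libraries lay on both sides of FLOXED, as they did for the summed neurofilament genes. The 8 CA1 pyramidal markers were below 0 in 8 of 8, with sums of 769 and 880 CPM against 597 and 539, and the 8 interneuron markers were above 0 in 7, with sums of 1066 and 997 CPM against 1292 and 1357. The 8 dentate granule markers were above 0 in 6, with sums of 414 and 401 CPM against 532 and 417. The markers listed for neurons of thalamus or brainstem had sums of 108 and 106 CPM against 123 and 178. Calb2 alone gave 62.4 and 41.8 CPM of these sums in FLOXED and 70.0 and 108 CPM in PELP1 FBKO. Whether the listed genes came from outside the hippocampus was not tested. Of the 6 tested, 5 were above 0, with a median log2 fold change of 0.67, and 4 passed an unadjusted p of 0.05 towards higher and 0 towards lower values, with 0 past the adjusted threshold.

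Markers of other cell types were above 0 throughout in 4 lists of 8 genes, those of oligodendrocytes, astrocytes, microglia and endothelial or mural cells. Their sums in FLOXED and PELP1 FBKO were 2904 and 3702 against 5801 and 6222 CPM for oligodendrocytes, and 4937 and 5962 against 6471 and 8428 for astrocytes. They were 554 and 495 against 654 and 879 CPM for microglia, and 140 and 204 against 274 and 250 for endothelial and mural cells. No marker of any list was at 0 in all libraries. Over the 10 cytoskeletal and growth-cone genes the median deviation was -0.05, 0.07, 0.05 and -0.03 in FLOXED 1 and 2 and PELP1 FBKO 1 and 2, a smaller spread than that of each of these glial and vascular lists. This was not particular to the 10 genes. Other growth-cone genes ran from -0.04 to 0.04 and other microtubule-associated protein genes from -0.07 to 0.07, though other tubulin genes ran from -0.14 to 0.21. The part of cell composition in the values of the 10 genes was not tested.

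**Figure D4:**
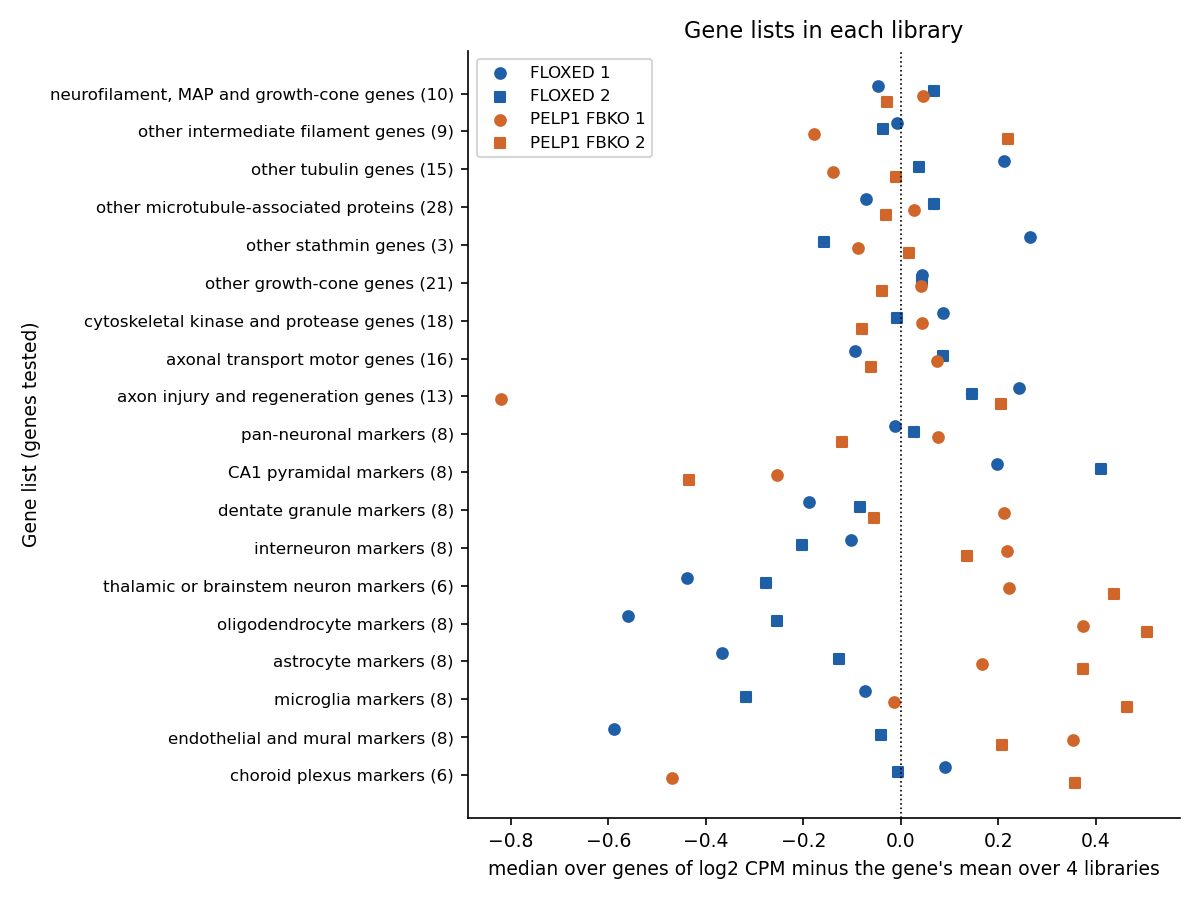
Median over the tested genes of each list of log2 CPM minus the gene's mean over the 4 libraries (x axis), for each library, with the number of genes tested in brackets. The 10 genes in the top line stay between -0.05 and 0.07 and other growth-cone genes between -0.04 and 0.04. Oligodendrocyte markers run from -0.56 in FLOXED 1 to 0.51 in PELP1 FBKO 2.

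Leaving out single libraries moved the log2 fold change of each of the 10 genes further than changing the tool to DESeq2, limma-voom or edgeR's exact test. Over the 4 fits with a library left out, Map2 ran from -0.19 to 0.19, Map1b from -0.02 to 0.44, Mapt from 0.06 to 0.43 and Ina from -0.30 to 0.0076. Nefm stayed between -0.02 and 0.02. In each of these fits 1 genotype has a single library, which is assumed to vary like the 2 of the other genotype, so a p that misses the threshold there says nothing about stability. Nefl and Mapt kept a positive value and Nefh, Tubb3 and Gap43 a negative one in the 4 fits, and 0 of the 10 genes passed the threshold in each, where the share of all tested genes called was 0% when FLOXED 1 was left out, 3.49% for FLOXED 2, 3.67% for PELP1 FBKO 1 and 3.92% for PELP1 FBKO 2.

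**Figure D5:**
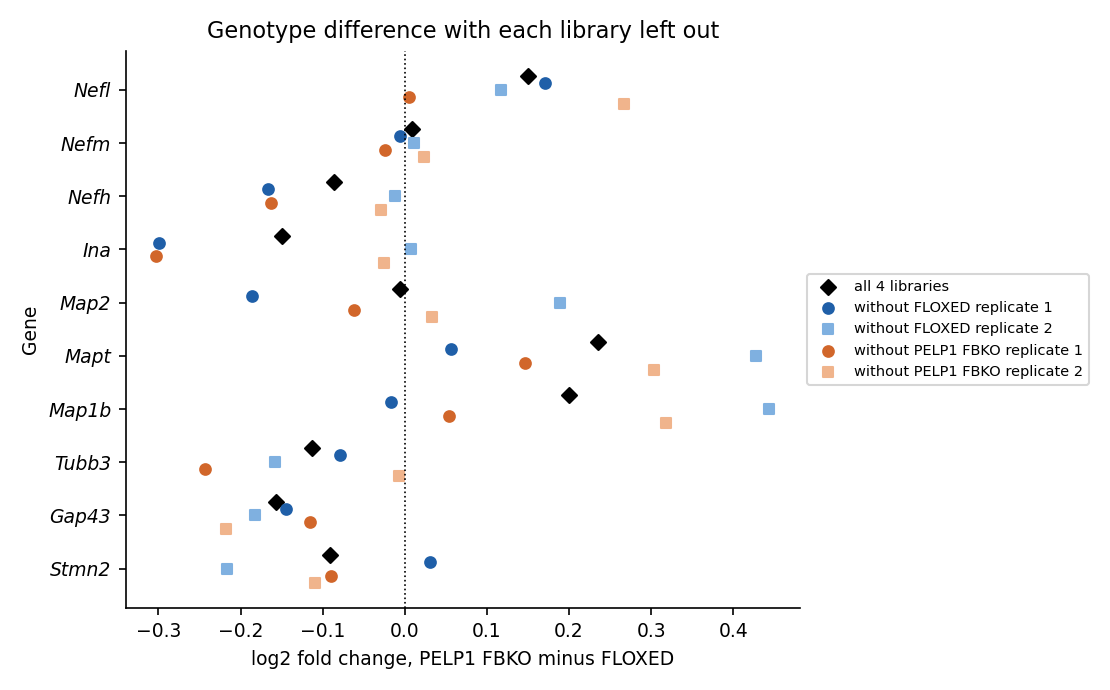
Log2 fold change of the 10 genes, PELP1 FBKO minus FLOXED, with 4 libraries (black) and with each library left out (blue for a FLOXED, orange for a PELP1 FBKO library). Values for Map2 fall on both sides of 0, from -0.19 to 0.19, and those of Gap43 stay between -0.22 and -0.12.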

How the data were processed

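RNA from 4 hippocampal libraries, bar-coded TruSeq RNA libraries read as 50-base single reads per the labels' protocols, was analysed. The deposited files give read counts for each gene symbol, which the authors left unscaled. The tools were TopHat2 2.0.8b, CASAVA 1.8.2 and HTSeq on the mm9 build, per the submitters' processing notes, while the series text names a human build. The annotation and HTSeq's version and strand setting are not given in the sources used here. HTSeq's summary rows were dropped before scaling and testing: of uniquely placed reads, 14.7% to 15.7% lay in no gene. Libraries of a genotype differed beyond sampling noise (chi-square per degree of freedom 23.3 for FLOXED and 17.4 for PELP1 FBKO, for genes that had 10 or more reads in both libraries together) and were kept as separate samples.

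The test was edgeR 4.0.16 (R 4.3.3), with TMM, filterByExpr, quasi-likelihood F test of genotype, and Benjamini-Hochberg adjustment over 14978 genes at a threshold of 0.05. It was tested on simulated data. Intervals are 95%, from the standard error derived from the F statistic. DESeq2 1.42.0, limma-voom (limma 3.58.1), edgeR's exact test, other scalings and filters, a replicate block and each library left out were alternatives. Transcript-length offsets, a crossed block and the 8 genes with an exact symbol were added after seeing the data. Lengths are from GENCODE vM21 (98.9% of tested genes), a newer build than mm9, and promoters from RefSeq on GRCm38.p6. The genes and lists were chosen with earlier results of these data known. The rule names the 10 genes, Pelp1, the 2 genes with the smallest p in each pathway list (not all are given here) and the 3 nearest in pattern to the gene with the smallest p. Ratios of genes were chosen after their values were seen.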

Additional observations from a re-analysis of the deposited data

How the results depend on the processing

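In each of 15 alternatives 0 of the cytoskeletal and growth-cone genes were higher and 0 lower. Their median log2 fold change stayed between -0.09, over the 8 genes with an exact symbol, and 0.0092, without FLOXED 2. Of 130 values of single genes under an alternative, 116 kept their direction and 14 changed sign, in 5 of the genes. Nefm turned to -0.0011 with DESeq2, -0.00082 with median-ratio size factors, -0.027 with transcript-length offsets, -0.0055 without FLOXED 1 and -0.024 without PELP1 FBKO 1. Map2 turned to 0.0090 with limma-voom, 0.0092 with library totals, 0.0082 with a minimum of 50 reads in every library, 0.0068 with the replicate block, 0.19 without FLOXED 2 and 0.033 without PELP1 FBKO 2. Without FLOXED 1, Map1b turned to -0.017 and Stmn2 to 0.030, and without FLOXED 2 Ina turned to 0.0076. With each library left out, Nefm ran from -0.024 to 0.024, Map2 from -0.19 to 0.19, Map1b from -0.017 to 0.44, Stmn2 from -0.22 to 0.030 and Ina from -0.30 to 0.0076. The smallest adjusted p of any of the 10 genes in any alternative was 0.240.

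Over all genes, the counts higher and lower, 0 and 0 in the quasi-likelihood fit (2341 genes at an unadjusted p under 0.05), were 319 and 130 with DESeq2, 562 and 197 with edgeR's exact test, 13 and 4 with median-ratio size factors, 20 and 3 with library totals, 278 and 81 with any gene that had a read, 39 and 4 with a minimum of 50 reads in every library, and 218 and 82 with transcript-length offsets. They were 0 and 0 with limma-voom. Leaving out each library gave 0 to 457 higher and 0 to 324 lower. Pelp1 passed with edgeR's exact test (log2 fold change -0.59, adjusted p = 0.0432), and its adjusted p ran from 0.0432 to 0.345 over 13 alternatives. The number of the 10 genes separated towards higher values, 1 in the main scaling, was 2 with library totals, 0 with median-ratio size factors, and 0 to 4 with each library left out. Towards lower values it was 1 to 5 with each library left out. With 1 library against 2, 35.8% to 41% of all tested genes were separated towards higher and 34% to 40.5% towards lower values.

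The labels number the libraries of both genotypes 1 and 2 and do not say what the number marks. With the replicate number as a block, 387 genes were higher and 179 lower, with 0 of the 10 among them. Same-numbered libraries deviated from their genotype means with a correlation across genes of -0.16. With the crossed pairing as a block, 223 were higher and 91 lower. Each of the 10 genes had at least 1589 reads in every library. The 95% intervals rest on the spread between these libraries alone, which may be technical, and do not bound a difference between animals.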
